A study of Mus musculus with 8 samples.

Results

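The genes described here are 37 interferon-stimulated and antigen presentation genes in mouse liver. They were chosen by symbol: a probe set was taken when its symbol in the platform annotation, alone or among several, was on the list, and each gene was represented by its brightest probe set. All 37 of 37 were measured, out of 21335 genes named on the array. Of them, 27 are interferon-stimulated genes and 10 belong to antigen presentation, 5 to the class I route and 5 to the class II route. The rule that picked the genes held no expression value, but the list was drawn up with earlier results of these data known. The brightest probe set was the one with the highest mean over all arrays.

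The study measured liver RNA of adult male mice, 4 control mice labelled wild type and 4 labelled as lacking Rictor in the liver through a floxed allele and albumin-Cre. The Rictor protein belongs to mTOR complex 2, a kinase complex that insulin activates. All mice were fasted for 16 h and then had free access to food for 3 h, and 1 array was run per liver from 100 ng of RNA. The comparison, knockout-labelled against control, asks how liver transcripts depend on Rictor after refeeding. Albumin-Cre acts in hepatocytes, so Kupffer cells, dendritic cells, lymphocytes and endothelial cells of a knockout-labelled liver keep an intact gene. The strain and the Cre and flox status of the controls are not given in the sources used here.

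Values are RMA expression values taken as log2, and a difference is knockout-labelled minus control on that scale. Rictor itself did not separate the groups. Its probe set read 9.47, 9.28, 9.23 and 9.64 on controls 1 to 4 and 9.15, 9.51, 9.68 and 9.47 on knockout-labelled arrays 1 to 4, a difference of 0.05 (SE 0.13, exact permutation p = 0.83). Which exons its probes cover was not examined, so it does not check the labels, and every direction below rests on them. Along principal component 1, with 35.5% of the variance, knockout-labelled array 1 lay at -12.9, among controls 2 to 4 (-15.6 to -12.9), while knockout-labelled arrays 2 to 4 lay between 18.4 and 20.4 and control 1 at -2.19. Results that rest on knockout-labelled array 1 are therefore given with and without it.

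Interferons are secreted signals of infection. Type I and type III interferons act through a complex with STAT2 and IRF9, which binds the interferon-stimulated response element, and interferon gamma acts through STAT dimers that bind the gamma-activated site. The induced genes block viral replication, sense viral RNA, attract T cells and raise the display of peptides on MHC molecules. Class I molecules with beta-2 microglobulin are found on nearly all cells, hepatocytes included, whereas class II molecules are made by dendritic cells, B cells and macrophages under the coactivator CIITA.

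Promoter sequences are shown because part of the members share a response element there, which the choice of genes did not use. In the RefSeq promoter table (GRCm38.p6), 28 of the 37 members had an entry, and the 250 bases before the start were searched on both strands; a gene with several starts counted when any of its windows held a match. The core of the interferon-stimulated response element, GAAANNGAAA, was present in 11 of 23 interferon-stimulated members (47.8%), in 1 of 5 antigen presentation members (B2m) and in 3.46% of 27025 genes. Capitals mark the core, which reads TTTCNNTTTC where it lies on the opposite strand. Ifit1 (chr19:34640755-34640843, plus strand) and Ifit3 (chr19:34583343-34583446, plus strand) each hold a pair of cores, and Irgm1 (chr11:48871421-48871480, minus strand) holds 2 that overlap. Gbp2 (chr3:142620574-142620643, plus strand), Cxcl10 (chr5:92349063-92349132, minus strand) and B2m (chr2:122147518-122147587, plus strand) hold 1 each.
Ifit1: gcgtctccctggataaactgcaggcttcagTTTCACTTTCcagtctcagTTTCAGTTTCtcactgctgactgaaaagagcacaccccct
Ifit3: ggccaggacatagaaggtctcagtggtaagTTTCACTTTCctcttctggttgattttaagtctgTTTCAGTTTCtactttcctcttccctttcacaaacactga
Irgm1: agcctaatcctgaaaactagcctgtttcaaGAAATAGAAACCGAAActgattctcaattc
Gbp2: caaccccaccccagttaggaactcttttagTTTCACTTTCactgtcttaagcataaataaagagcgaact
Cxcl10: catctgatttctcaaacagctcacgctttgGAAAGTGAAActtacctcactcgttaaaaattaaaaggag
B2m: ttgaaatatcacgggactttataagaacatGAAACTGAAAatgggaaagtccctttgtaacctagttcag

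The class II promoters are shown for contrast. Their genes shared the highest and the lowest array with several interferon-stimulated members, such as Cxcl9 and Irf7. Unlike in those 2 genes, most class II readings on knockout-labelled arrays 2 and 4 lay within the control range. H2-Aa (chr17:34287837-34287901, minus strand) and H2-Eb1 (chr17:34305778-34305866, plus strand) hold no response element core in this window, and the capitals mark their CCAAT boxes (CCAAT, or ATTGG on the opposite strand), the letters at the heart of the Y box to which NF-Y binds in class II promoters. A CCAAT box was present in 5 of 5 antigen presentation members with an entry, in 10 of 23 interferon-stimulated members (43.5%) and in 37.5% of all genes. The gamma-activated site, TTCNNNGAA, was present in 6 of 23 interferon-stimulated members (26.1%), 0 of 5 antigen presentation members and 8.13% of all genes. A match is a description of letters and not of a bound site.
H2-Aa: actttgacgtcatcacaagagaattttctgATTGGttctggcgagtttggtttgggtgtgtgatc
H2-Eb1: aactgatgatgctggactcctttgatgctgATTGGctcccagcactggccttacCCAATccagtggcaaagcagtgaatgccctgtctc

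No member passed the test with all 8 arrays. The lowest adjusted p among the 37 was 0.307, for Isg15 (limma, Benjamini-Hochberg over 23410 probe sets, threshold 0.05), and 0 of 23410 probe sets passed in all (0%). At an unadjusted limma p under 0.05 there were 2 of 37 members (5.41%), Isg15 higher and Tapbp lower, against 11.1% of all probe sets. The groups did not overlap in 1 member (2.70%), Isg15, against 4.72% of all probe sets. The mean was lower in the knockout-labelled group for 20 of 27 interferon-stimulated members and 5 of 10 antigen presentation members, against 55.7% of all probe sets. The median difference was -0.09 over the interferon-stimulated members, -0.0036 over the antigen presentation members and -0.02 over all probe sets. In whole liver, fewer cells of a type and less RNA per cell cannot be told apart.

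What stood out among the members was where the extremes fell. Knockout-labelled array 1 was the highest of all 8 arrays in 15 of 27 interferon-stimulated members and 7 of 10 antigen presentation members, together 59.5%, against 11.0% of all probe sets. Knockout-labelled array 3 was the lowest in 20 of 37 members, or 54.1%, against 12.4% of all probe sets. The highest and the lowest reading of many members thus belonged to the same labelled group. Averaged over the 27 interferon-stimulated members, the arrays read 9.05, 8.93, 8.73 and 8.86 in controls 1 to 4 and 9.23, 8.59, 8.47 and 8.79 in knockout-labelled arrays 1 to 4. Members share their arrays and many share regulators, so these counts are not independent observations.

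**Figure D1:**
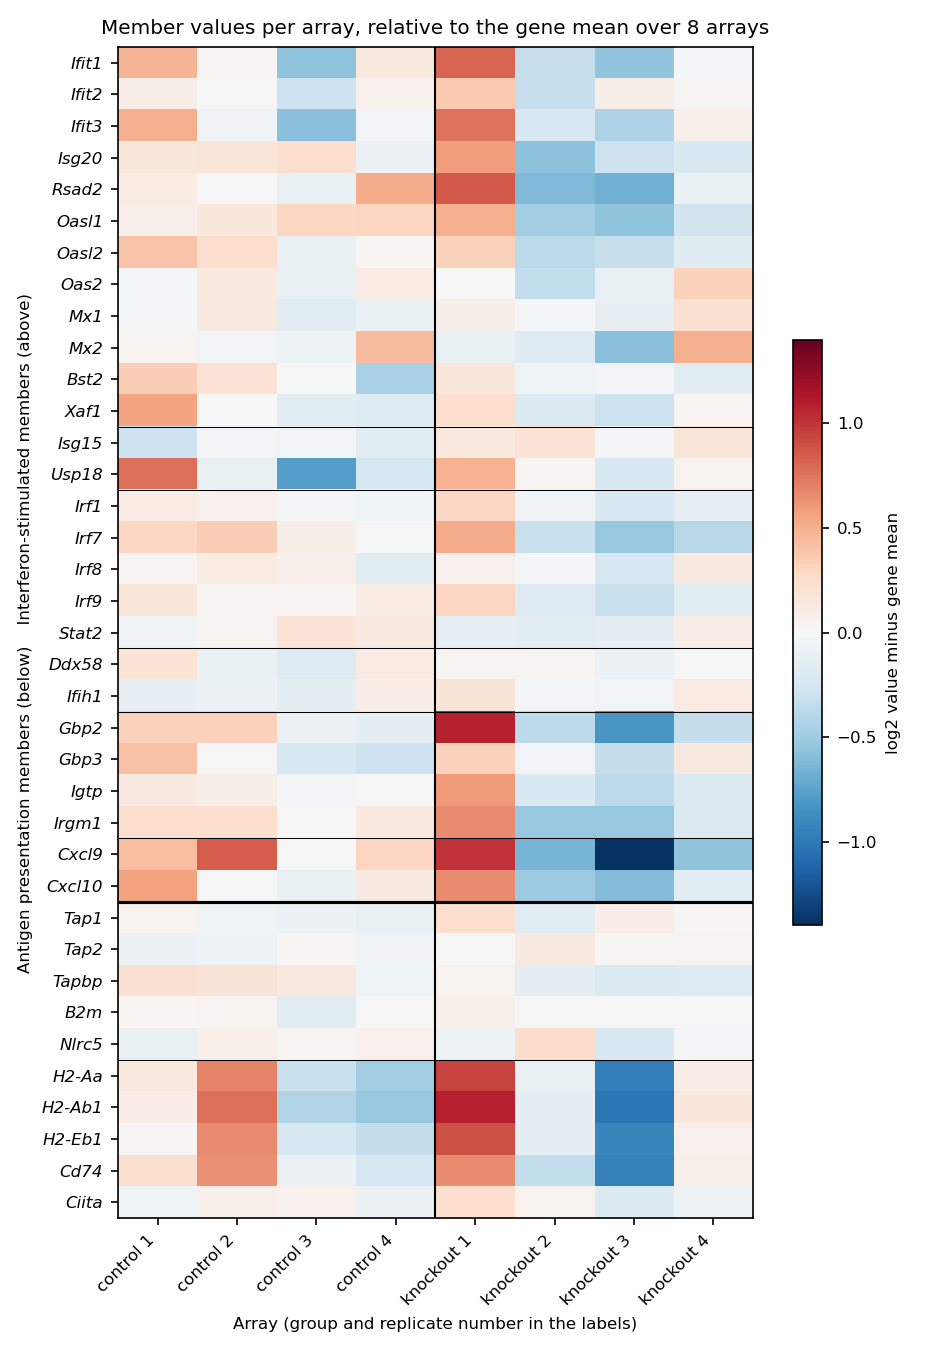
Value of each of the 37 members on each array, as the log2 value minus that gene's mean over the 8 arrays (red higher, blue lower), with the 4 control arrays left and the 4 knockout-labelled arrays right of the vertical line. The column of knockout-labelled array 1 is the highest in 22 of 37 rows and that of knockout-labelled array 3 the lowest in 20 of 37.

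Without knockout-labelled array 1, 6 members passed, all interferon-stimulated and all lower: Cxcl9, Oasl1, Irgm1, Irf7, Gbp2 and Isg20. They are 22.2% of the 27 interferon-stimulated members, against 2.90% of all probe sets that passed lower in the same fit. By its brightest probe set, none of the 10 antigen presentation members passed and no member passed higher, against 1.59% of all probe sets that did. Dimmer probe sets of Nlrc5 and of Tapbp that passed higher in this fit are given with those genes. Knockout-labelled arrays 2 to 4 all lay below all 4 controls in 10 of 27 interferon-stimulated members (37%) and in 1 of 10 antigen presentation members (Tapbp), against 10.4% of all probe sets. The same 6 members passed, again lower, without both arrays numbered 1. In that fit more of all probe sets passed as well, 1090 of 23410 lower and 748 higher. When limma weighted the arrays by their agreement within groups, knockout-labelled array 1 received the smallest weight and 0 of 37 members passed, against 3.95% of all probe sets, and the lowest adjusted p was 0.0511, for Cxcl9. That array was known to stand apart, so a call made without it does not test a gene anew.

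**Figure D2:**
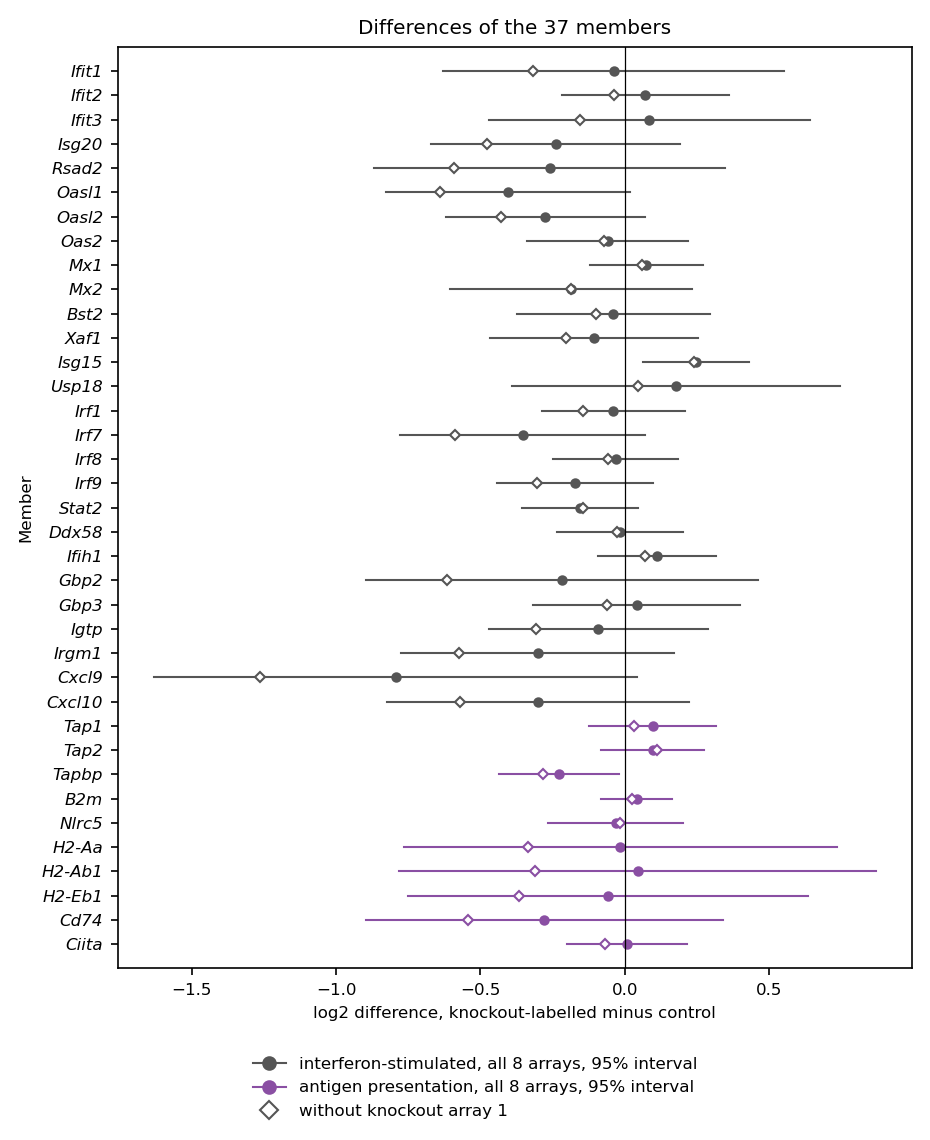
Difference of each member on the log2 scale, knockout-labelled minus control, with its 95% interval from the limma fit to all 8 arrays (filled circles, grey for interferon-stimulated and purple for antigen presentation), and the difference without knockout-labelled array 1 (open diamonds). The intervals exclude 0 only for Isg15 and Tapbp, and the open diamonds of Cxcl9, Oasl1, Irgm1, Irf7, Gbp2 and Isg20 are those that passed the adjusted test.

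The chemokine Cxcl9, induced mainly by interferon gamma and a ligand of the T cell receptor CXCR3, had the largest difference of any member. It read 9.90, 10.32, 9.48 and 9.77 in controls and 10.48, 8.81, 8.09 and 8.90 on knockout-labelled arrays 1 to 4. Array 1 of the knockout-labelled group lay above every control, and the other 3 lay below every control. The difference was -0.79 (SE 0.38, 95% interval -1.63 to 0.04), a 1.73-fold lower mean that did not pass (limma adjusted p = 0.475, exact permutation p = 0.229). Without knockout-labelled array 1 it was -1.26 (SE 0.21, limma adjusted p = 0.00985). Cxcl10, the related CXCR3 ligand, read 9.66, 9.11, 9.01 and 9.23 in controls and 9.76, 8.60, 8.50 and 8.95 in the knockout-labelled group. The arrangement of its arrays was the same as for Cxcl9, with a smaller difference of -0.30 (SE 0.24, limma adjusted p = 0.697) and of -0.57 without knockout-labelled array 1 (limma adjusted p = 0.0697).

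Among the interferon-gamma-induced GTPases, which act against intracellular parasites and bacteria, the same split appeared in 3 of 4. Irgm1 read 10.77, 10.77, 10.54 and 10.68 in controls, and 11.21, 10.004, 10.011 and 10.33 on knockout-labelled arrays 1 to 4. Array 1 was thus the highest of all and arrays 2 to 4 the lowest 3. The difference was -0.30 (SE 0.22, limma adjusted p = 0.655), and -0.57 (SE 0.11, limma adjusted p = 0.0141) without array 1. Gbp2 ranged from 7.35 to 7.80 in controls and read 8.56, 7.12, 6.66 and 7.14 in the knockout-labelled group, where its spread (SD 0.82) was the widest within a group after those of Cxcl9 and H2-Ab1. Its difference was -0.22 (SE 0.31) with all arrays and -0.61 (SE 0.15, limma adjusted p = 0.0435) without array 1. The Gbp2 probe set also lists Gbp2b and the Igtp probe set also lists Irgm2, so the listed genes cannot be told apart there. Igtp showed the same arrangement (10.93 on array 1, and 9.96 to 10.13 on the other 3, against 10.30 to 10.46 in controls), while Gbp3 did not, with 7.25 to 7.95 in controls and 7.21 to 7.86 in the knockout-labelled group.

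Antiviral effectors were 12 of the members, and 9 of the 12 had a lower mean in the knockout-labelled group. Oasl1, which restrains translation of Irf7 mRNA, read 9.78, 9.86, 10.01 and 10.02 in controls and 10.23, 9.23, 9.15 and 9.45 in the knockout-labelled group. Its controls lay within a narrow band, and no knockout-labelled array fell inside it. The difference was -0.40 (SE 0.19, limma adjusted p = 0.472), and -0.64 (SE 0.11, limma adjusted p = 0.0085) without knockout-labelled array 1, the lowest adjusted p of any member in that fit. Isg20, an exonuclease that degrades RNA, read 8.95, 8.96, 9.03 and 8.71 in controls and 9.38, 8.22, 8.50 and 8.58 in the knockout-labelled group. Array 1 again lay above and arrays 2 to 4 below every control, and the difference moved from -0.24 (SE 0.20) to -0.48 (SE 0.11, limma adjusted p = 0.0409) without array 1. Rsad2 (viperin) was as wide, from 8.25 to 9.78 in the knockout-labelled group against 8.81 to 9.44 in controls, and did not pass in either fit (limma adjusted p = 0.792 and 0.0763). Oasl2 lay between 8.48 and 8.99 in controls and between 8.21 and 8.91 in the knockout-labelled group, with array 1 inside the control range and the other 3 below it.

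The Ifit genes, whose proteins bind foreign RNA, varied between livers of each label, with differences between the groups near 0 over all 8 arrays. Ifit1 read 9.22, 8.76, 8.18 and 8.88 in controls and 9.55, 8.42, 8.19 and 8.71 in the knockout-labelled group, a difference of -0.04 (SE 0.27). Ifit3 read 9.66, 9.10, 8.57 and 9.12 in controls and 9.92, 8.93, 8.72 and 9.22 in the knockout-labelled group, a difference of 0.08 (SE 0.26). In both genes the arrays numbered 1 were the highest of their group, the lowest array was control 3, and the 95% intervals of the difference were -0.63 to 0.55 for Ifit1 and -0.47 to 0.64 for Ifit3. Ifit2 varied less, from 6.41 to 6.79 in controls and from 6.39 to 7.06 in the knockout-labelled group. Without knockout-labelled array 1 the differences were -0.32 for Ifit1, -0.04 for Ifit2 and -0.16 for Ifit3 (limma adjusted p = 0.482, 0.922 and 0.780).

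Other effectors showed no common order of arrays. Mx1 (6.05 to 6.32 in controls, 6.08 to 6.41 in the knockout-labelled group), Mx2 (7.18 to 7.70 and 6.67 to 7.75) and Oas2 (7.72 to 7.95 and 7.48 to 8.14) were highest on knockout-labelled array 4. Bst2 (tetherin) and Xaf1 were highest on control 1, and the groups overlapped in both. For these 5 genes the differences lay between -0.19 and 0.08, and the limma adjusted p was at least 0.782.

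**Figure D3:**
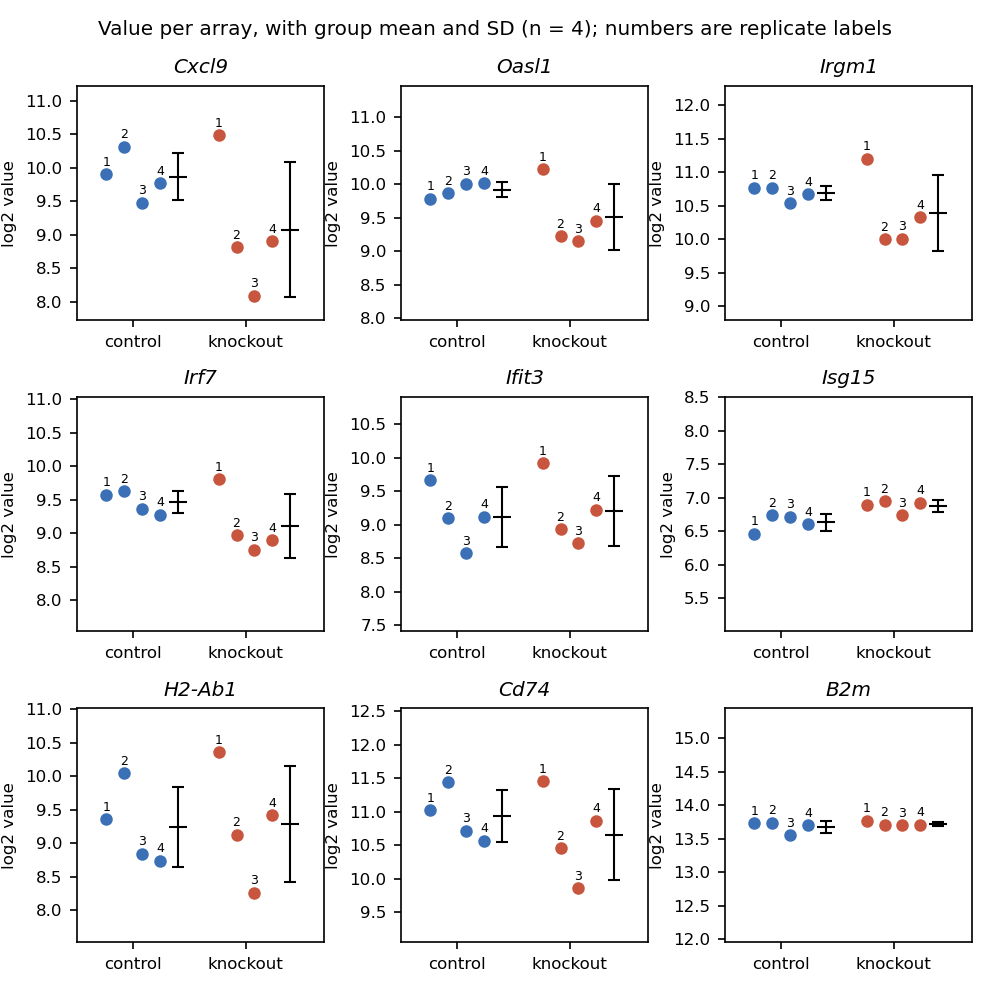
Log2 value of 9 members on each array (points numbered by the replicate in the labels, blue for control and red for knockout-labelled), with the mean and SD of each group (n = 4) beside them; every panel spans the same number of log2 units. Cxcl9, Oasl1, Irgm1 and Irf7 show knockout-labelled array 1 above and arrays 2 to 4 below the controls, H2-Ab1 and Cd74 vary widely in both groups, and B2m is level.

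The transcription factors of the interferon response followed the same arrangement in part. Irf7, which amplifies type I interferon production, read 9.58, 9.63, 9.37 and 9.28 in controls and 9.81, 8.97, 8.76 and 8.89 in the knockout-labelled group. Its arrays 2 to 4 lay below every control and array 1 above, with a difference of -0.35 (SE 0.19, limma adjusted p = 0.533) and of -0.59 (SE 0.11, limma adjusted p = 0.0145) without array 1. Irf9, the DNA-binding subunit of ISGF3, read 10.32, 10.19, 10.17 and 10.25 in controls and 10.45, 9.96, 9.84 and 9.99 in the knockout-labelled group. This is the same order of groups at a smaller size, -0.17 (SE 0.12) and -0.30 without array 1 (limma adjusted p = 0.0777). Stat2, the partner of Irf9, differed by -0.16 (SE 0.09), and there array 1 (10.44) was as low as arrays 2 and 3 (10.40 and 10.44). Irf1 and Irf8, induced by interferon gamma and, for Irf8, present in myeloid cells, had differences of -0.04 (SE 0.11) and -0.03 (SE 0.10).

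Isg15 went the other way from most interferon-stimulated members. It encodes a ubiquitin-like modifier and read 6.47, 6.740, 6.719 and 6.61 in controls and 6.90, 6.95, 6.743 and 6.93 in the knockout-labelled group. All 4 knockout-labelled arrays lay above all 4 controls, but knockout-labelled array 3 and control 2 were next to each other at 6.743 and 6.740. The difference was 0.25 (SE 0.08, 95% interval 0.06 to 0.43), with an unadjusted limma p of 0.0133, a limma adjusted p of 0.307 and an exact permutation p of 0.0286, the smallest that 4 against 4 can give. It was 0.24 without knockout-labelled array 1, so its size did not rest on that array. Its probe set also lists Gm9706. Usp18, which removes ISG15 from proteins and dampens the type I interferon receptor, read 10.88, 10.01, 9.33 and 9.86 in controls and 10.59, 10.14, 9.89 and 10.16 in the knockout-labelled group. The controls alone covered a wider range than the knockout-labelled arrays, and the difference was 0.18 (SE 0.26).

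The RNA sensors were steady. Ddx58 (RIG-I) lay between 10.25 and 10.63 in controls and between 10.35 and 10.45 in the knockout-labelled group, a difference of -0.02 (SE 0.10). Ifih1 (MDA5) lay between 9.86 and 10.09 in controls and between 9.95 and 10.17 in the knockout-labelled group, a difference of 0.11 (SE 0.09).

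Class I members varied little between livers and, apart from Tapbp, had differences near 0. B2m, the invariant light chain of class I molecules, read 13.73, 13.74, 13.55 and 13.70 in controls and 13.77, 13.71, 13.70 and 13.71 in the knockout-labelled group. Its difference was 0.04 (SE 0.06, 95% interval -0.08 to 0.16), the narrowest interval of any member. Tap1 and Tap2, the transporter of peptides into the endoplasmic reticulum, differed by 0.10 (SE 0.10) and 0.10 (SE 0.08). Tapbp (tapasin), which holds the transporter to class I molecules, read 10.79, 10.75, 10.70 and 10.51 in controls and 10.63, 10.44, 10.38 and 10.40 in the knockout-labelled group. Its array 1 lay inside the control range and arrays 2 to 4 below it, for a difference of -0.23 (SE 0.10, limma adjusted p = 0.401).

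Several probe sets named the same class I gene and did not all point one way. The other 2 Tapbp probe sets, which also list the ribosomal protein gene Rps3a1, differed by 0.46 and 0.45. With knockout-labelled array 1 left out they passed higher (0.54 and 0.53, limma adjusted p = 0.0425 and 0.0459), while the probe set that names Tapbp alone had a lower mean and did not pass (-0.28, limma adjusted p = 0.109). Nlrc5, the coactivator of class I genes, had 19 probe sets. The brightest differed by -0.03 (SE 0.11), whereas 15 of the 19 had a higher mean in the knockout-labelled group, with a median of 0.19, a range from -0.26 to 0.44 and a lowest limma adjusted p of 0.173. Without knockout-labelled array 1, 2 of these dimmer Nlrc5 probe sets passed higher (0.57 and 0.41, limma adjusted p = 0.0353 and 0.0402). These probe sets divide 1 transcript and are not replicates.

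Class II members differed widely between livers of the same label. H2-Aa read 10.28, 10.84, 9.84 and 9.65 in controls and 11.09, 10.04, 9.17 and 10.24 in the knockout-labelled group, for a difference of -0.02 (SE 0.34). H2-Ab1 read 9.36, 10.04, 8.84 and 8.74 in controls and 10.35, 9.13, 8.26 and 9.42 in the knockout-labelled group, for a difference of 0.04 (SE 0.38). Cd74, the invariant chain that guides class II molecules, read 11.03, 11.44, 10.72 and 10.57 in controls and 11.46, 10.46, 9.86 and 10.87 in the knockout-labelled group, for a difference of -0.28 (SE 0.28). H2-Eb1 went along with them (8.47 to 10.29 in the knockout-labelled group, 9.06 to 10.06 in controls), and so did Ciita over a smaller range (6.52 to 6.95 and 6.64 to 6.79). In all 5 class II members knockout-labelled array 1 was the highest and knockout-labelled array 3 the lowest array. Control 2 came second in all 5, so high readings were found under both labels.

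The routes differed in their spread between livers. The median SD within groups was 0.617 for the 5 class II members, 0.119 for the 5 class I members, 0.298 for the 27 interferon-stimulated members and 0.135 for all probe sets. For H2-Aa the 95% interval of the difference was -0.76 to 0.73, and for Cd74 it was -0.90 to 0.34. Without knockout-labelled array 1 the class II median moved from -0.02 to -0.34 and the class I median from 0.04 to 0.03, and no class II member passed, with Cd74 nearest (limma adjusted p = 0.246). Unlike the chemokines, class II genes on knockout-labelled arrays 2 and 4 lay within the control range, except Cd74 on array 2.

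Set side by side, the interferon-stimulated and the antigen presentation members differed in their medians by -0.09 with all 8 arrays and by -0.00896 without knockout-labelled array 1. With that array left out the medians were -0.19 and -0.18, against -0.0097 for all probe sets. Leaving out knockout-labelled array 3 instead gave medians of -0.02 for the interferon-stimulated and 0.08 for the antigen presentation members. On leaving out knockout-labelled array 1, the medians of both classes thus moved by more than they had differed from each other, and no test was made of a median over chosen genes.

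**Figure D4:**
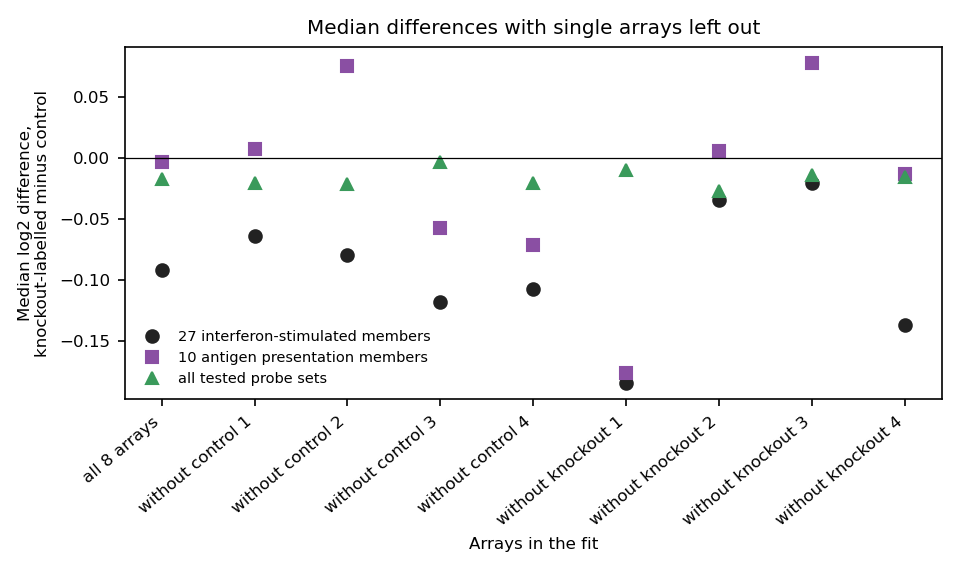
Median log2 difference, knockout-labelled minus control, of the 27 interferon-stimulated members (circles), the 10 antigen presentation members (squares) and all tested probe sets (triangles), with all 8 arrays and with each array left out in turn. The member medians are lowest without knockout-labelled array 1 (-0.19 and -0.18) and highest without knockout-labelled array 3 (-0.02 and 0.08), while that of all probe sets stays close to 0.

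Members with and without the promoter core shared the arrangement of arrays. The 11 interferon-stimulated members with the core shown above had a median difference of -0.09, or -0.31 without knockout-labelled array 1, and 7 of them were highest on that array. For the 12 without it the medians were -0.14 and -0.25, and 8 were highest on that array. Of the 6 members that passed without knockout-labelled array 1, the windows of Gbp2 and Irgm1 held the core and those of Cxcl9, Oasl1, Irf7 and Isg20 did not. A site outside the 250 bases would not be seen.

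Other genes of the pathway were read from 5 lists. Of 19 interferon ligands, receptors and signalling genes, 8 had a higher and 11 a lower mean, none passed, and none had an unadjusted limma p under 0.05. The smallest p belonged to Socs3, an inhibitor of cytokine signalling, with a difference of 0.34 (SE 0.17, limma adjusted p = 0.474), and to the kinase Jak2, with -0.21 (SE 0.11, limma adjusted p = 0.521). Over the 8 arrays the interferon gene Ifnb1 read 4.88 to 5.13, Ifng 6.63 to 6.88, Ifnl2 8.58 to 8.99 and Ifnl3 7.32 to 7.67. Knockout-labelled array 1 read 5.04, 6.71, 8.88 and 7.32 for these 4 genes. Of 17 nucleic acid sensing genes, 13 had a lower mean and none passed; Trim25, which activates RIG-I, differed by -0.18 and the DNA sensor Cgas by -0.19 (limma adjusted p = 0.494 and 0.534).

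A further 37 interferon-stimulated genes that are not members had a median difference of -0.03, with 16 higher and 21 lower means. None passed. An unadjusted limma p under 0.05 was found for 2 higher and 5 lower of the 37, against 11.1% of all probe sets in either direction. Cxcl11, the remaining CXCR3 ligand, read 8.68, 8.95, 8.81 and 9.33 in controls and 8.42, 8.39, 8.26 and 8.59 in the knockout-labelled group, so here array 1 was low with the others. All 4 lay below all controls, and the difference was -0.53 (SE 0.13, limma adjusted p = 0.186). Ifi35 differed by 0.29 (SE 0.10, limma adjusted p = 0.312), with the groups apart in the direction of Isg15. Knockout-labelled array 1 was the highest array in 13 of the 37 and control 1 in another 13, each 35.1%, against 11.0% and 12.7% of all probe sets. Without knockout-labelled array 1, 3 of the 37 passed, all lower, against 2.90% of all probe sets that passed lower in that fit. They were Rtp4 (-0.73), Parp12 (-0.43) and Lgals3bp (-0.28), with limma adjusted p of 0.0432, 0.0225 and 0.0490.

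Of 17 other class I genes, 9 had a higher and 8 a lower mean, and none passed. The immunoproteasome subunit Psmb10 read 9.23, 9.01, 8.91 and 8.67 in controls and 9.27, 9.49, 9.37 and 9.29 in the knockout-labelled group, a difference of 0.40 (SE 0.12, limma adjusted p = 0.242) with no overlap of the groups. Rfxank, a subunit of the RFX complex that binds MHC promoters, differed by -0.38 (SE 0.12, limma adjusted p = 0.264). Without knockout-labelled array 1, Rfxank passed lower (-0.45, limma adjusted p = 0.0488) and Erap1, the peptidase that trims class I peptides, passed higher (0.36, limma adjusted p = 0.0470). In that fit 2.90% of all probe sets passed lower and 1.59% higher. Of 11 other class II genes, 9 had a lower mean and none passed. The protease Ctss had the smallest p there, with a higher mean (0.50, SE 0.17, limma adjusted p = 0.309), followed by H2-Ob (-0.12, limma adjusted p = 0.576).

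Markers of the cells that could carry these transcripts moved partly with them, and their part in the results was not tested. Hepatocyte markers were level, their mean lying between 13.84 and 13.88 on all arrays, with Hnf4a at -0.13 and Apob at 0.06. For 12 Kupffer cell and macrophage markers the mean lay between 8.92 and 9.70 in controls and between 9.19 and 9.99 in the knockout-labelled group. It read 9.54, 9.19, 9.19 and 9.99 on knockout-labelled arrays 1 to 4, and array 4 was the highest array in 9 of the 12 markers. A higher mean was found for 10 of 12, among them C1qa (0.41) and Marco (0.59), and a lower one for 2, the lowest being C1qb (-0.40). For 10 dendritic cell markers the means lay between 6.70 and 6.85 and between 6.59 and 6.74, with Clec9a at -0.38 and Ccr7 at -0.16. The 7 B cell markers measured lay between 6.18 and 6.52 and between 6.15 and 6.36, with 6 of 7 lower, among them Cd79a (-0.37) and Fcrla (-0.24). The 11 T and NK cell markers lay between 6.05 and 6.27 and between 5.93 and 6.13, all 11 with a lower mean, among them Cd4 (-0.28) and Ncr1 (-0.31). In the remaining lists, the means lay between 10.15 and 10.39 and between 10.16 and 10.46 for 10 sinusoidal endothelial markers (Fcgr2b at -0.19, Stab1 at 0.21), and between 9.09 and 9.40 and between 9.17 and 9.30 for 8 stellate cell markers (Dcn at -0.14, Des at -0.22). They lay between 5.80 and 5.87 and between 5.77 and 5.85 for 7 neutrophil markers (S100a8 at 0.12, Mpo at -0.13), and between 6.88 and 7.35 and between 6.83 and 7.25 for 5 cholangiocyte markers (Epcam at -0.46, Sox9 at -0.44). With all 8 arrays no marker of these lists passed. Epcam alone among them passed, lower, when knockout-labelled array 1 was left out (-0.67, limma adjusted p = 0.00561) and when arrays were weighted (-0.57, limma adjusted p = 0.0387). Without both arrays numbered 1, Epcam (-0.68, limma adjusted p = 0.00283) and Sox9 (-0.84, limma adjusted p = 0.0133) passed lower. Of all probe sets, 2.90% passed lower and 1.59% higher without knockout-labelled array 1, and 3.95% passed in either direction with array weights. Without both arrays numbered 1, 1090 of 23410 passed lower and 748 higher. Control 2 was the highest and knockout-labelled array 3 the lowest array in the means of the dendritic, the B and the T and NK cell lists. Those lists were dim, with median levels of 6.80, 6.54 and 6.26 against 7.39 over all probe sets. No list of immune cells had its highest mean on knockout-labelled array 1. Single markers did read highest there: 2 of 10 dendritic, 2 of 11 T and NK cell and 1 of 7 neutrophil markers. A link of these markers to the class II readings was not tested.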

How the data were processed

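Liver RNA of 4 control and 4 knockout-labelled mice was measured, each on its own Affymetrix Mouse Gene 1.0 ST array. The authors deposited 1 log2 value per probe set and array, 35556 in all. Per the submitters' processing notes, Affymetrix Expression Console, RMA and Partek were used, with no versions, roles or order. The log base was read from the range of the values and the use of RMA. RMA gives all arrays a like distribution, which hides a shift common to most genes and shrinks differences at dim probe sets. Array medians lay between 6.90 and 7.03. For the probe sets, no genome build is named in the labels.

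Genes were named from the platform annotation: 21789 probe sets had 1 symbol, 1621 several and 12146 none. The 23410 with a symbol were tested by lmFit and eBayes with a mean-variance trend (limma 3.58.1, R 4.3.3), two-sided, with Benjamini-Hochberg adjustment, a threshold of 0.05 and no filter. An exact permutation test, two-sided, was run on single values. Of the members, 3 had more than 1 probe set and 3 a probe set that lists several genes. The text names every member, the targeted gene and, of each pathway and marker list, the 2 genes of smallest p; 4 interferon genes and the pathway genes that passed without knockout-labelled array 1 were named after their values were seen. Lists were read by counts and medians, since the members and lists were chosen with earlier results of these data known. The procedure was tested on simulated data. The alternatives were other normalizations, filters, variance priors and array weights, all probe sets of a gene, and arrays left out. The design states 4 mice per group.

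Same-numbered arrays were checked for pairing by the correlation of their deviations from the group means, which was -0.0790, -0.130, -0.0332 and 0.0784, and no pairs were assumed. Correlations between any 2 arrays lay between 0.992 and 0.996, which cannot show whether 2 samples are separate. Each array counted as a separate sample because the design states 4 mice per group.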

Additional observations from a re-analysis of the deposited data

Results flagged for a closer look

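Of 74 groups of 4 arrays, 2 for each of the 37 members, 1 held an array far from the others of its group. Ddx58, the RNA sensor RIG-I, read 10.35 on knockout-labelled array 3, where the nearest array of that group read 10.44. The gap was 0.891 of the group's whole range, above Dixon's 95% critical value for 4 samples. Chance flags about 1 in 20 such groups, and the 4 arrays of this group lay within a range narrower than that of the controls.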

How the results depend on the processing

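Over 18 alternatives, 17 members kept the sign of their difference and 20 changed it in at least 1, of which 19 changed on leaving out 1 array. The largest difference that changed sign was that of Tapbp, -0.229 by its brightest probe set with all 8 arrays. Gbp2 (-0.218) and Usp18 (0.176) changed sign on leaving out 1 array. With the mean of a gene's probe sets, Tapbp became 0.227 and Nlrc5 0.153. With quantile normalization again, H2-Aa became 0.00888. With array weights, Ifit3 became -0.0349, Gbp3 -0.0252, Ddx58 0.000202, H2-Ab1 -0.421 and Ciita -0.0785. Without both arrays numbered 1, Bst2 became 0.00594, Ddx58 0.0365, H2-Ab1 -0.273 and Ciita -0.0884.

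The number of members past the threshold was 0 in every alternative except when knockout-labelled array 1 was left out, alone or together with control 1, and then it was 6. The number of all probe sets past it was 924 with array weights and 1838 without both arrays numbered 1. On leaving out single arrays it ranged from 0 to 1053, with 1053 without knockout-labelled array 1, 255 without control 1 and 0 without any other. The cause was not tested. On leaving out single arrays the median of the interferon-stimulated members ranged from -0.185 to -0.0207, that of the antigen presentation members from -0.176 to 0.0781, and the first minus the second from -0.155 to -0.00896. That difference of medians turned to 0.0582 with array weights and to 0.00584 without both arrays numbered 1.

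Leaving out single arrays, the differences that changed sign ranged as follows. Among interferon-stimulated members, Ifit1 ranged from -0.317 to 0.137, Ifit2 from -0.0369 to 0.189, Ifit3 from -0.156 to 0.268, Oas2 from -0.176 to 0.0444, Bst2 from -0.198 to 0.0671 and Xaf1 from -0.203 to 0.0621. Usp18 ranged from -0.0534 to 0.463, Irf1 from -0.144 to 0.0233, Irf8 from -0.0848 to 0.0432, Ddx58 from -0.0806 to 0.0451, Gbp2 from -0.614 to 0.0182, Gbp3 from -0.0602 to 0.186 and Igtp from -0.307 to 0.0151. Among antigen presentation members, B2m ranged from -0.00258 to 0.0607, Nlrc5 from -0.119 to 0.0342, H2-Aa from -0.335 to 0.306, H2-Ab1 from -0.310 to 0.388, H2-Eb1 from -0.367 to 0.241 and Ciita from -0.0679 to 0.0746.

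With the replicate number as a block (pairing), 0 members passed and the medians were -0.0919 and -0.0036, as without it. At an unadjusted limma p under 0.05 there were 6 members with the block (Isg15, Tapbp, Cxcl9, Oasl2, Cxcl10 and Irf7), against 2 without it. The share of all probe sets at that level was not counted with the block, so the rise cannot be ascribed to the members. No adjusted call changed with the block. Probe-level signal and background were not used here, so no member was set against its background.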
